A study of Mus musculus with 15 samples.

Results

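The 9 regulators described here are hepatocyte transcription factors and xenobiotic receptors, and were followed across pregnancy and across forced p21 expression in mouse liver. They were chosen by name, as the rows of the deposited count table with the symbols Hnf4a, Foxa1, Foxa2, Foxa3, Cebpa, Cebpb, Nr1i2, Nr1i3 and Nr5a2. These are 9 of the 21702 genes listed, each found once, and all 9 passed the filter on low counts that left 12172 genes for testing.

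The adult hepatocyte is specified by a small network of transcription factors that bind one another's genes and the genes of plasma proteins, lipid carriers and metabolic enzymes. HNF4A is a nuclear receptor at the centre of that network. FOXA1, FOXA2 and FOXA3 are forkhead proteins that open chromatin at liver enhancers, and C/EBPα and C/EBPβ are basic leucine zipper proteins, the first linked to the quiescent, differentiated hepatocyte and the second to acute phase and regenerative responses. PXR, the product of Nr1i2, and CAR, the product of Nr1i3, are nuclear receptors that sense drugs, bile acids and steroids and control cytochrome P450 genes. LRH-1, the product of Nr5a2, is a nuclear receptor of bile acid and cholesterol genes.

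RNA was sequenced from whole livers of 15 female C57BL/6 mice (C57BL/6N in the methods) in 5 groups of 3. All mice had received an adeno-associated virus (AAV8) through the tail vein, in which the hepatocyte promoter TBG drives either no gene product (AAV8-null) or mouse p21 (AAV8-p21), and pregnant mice were injected before mating. AAV8-null mice were sampled without pregnancy (NP), at 8 days post-coitum (8 dpc, mid-pregnancy) and at 16 dpc (late pregnancy). The AAV8-p21 groups were 8 dpc and 16 dpc, so that p21 was not expressed from the virus in any NP group, and no group went without virus. TBG is active in hepatocytes, and expression of the transgene in other liver cells was not measured.

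Total counts lay between 12280709 and 17615185 per library, and levels are given as CPM, the depth-scaled counts of edgeR after its TMM scaling. Cdkn1a, the gene of p21, was at 347 to 648 CPM in AAV8-p21 livers at 8 dpc against 16.5 to 33.4 in AAV8-null livers, and at 815 to 1664 against 59.8 to 127 at 16 dpc, in the direction of the labels. Its differences had adjusted p = 0.087 and 0.062. The summed level of 9 hepatocyte markers was the highest of all marker lists in every library. Albumin alone took 20.5% to 27.8% of the counts at 16 dpc and 7.90% to 12.9% in the other libraries, and the TMM factors were 0.682 to 0.839 at 16 dpc and 1.10 to 1.25 elsewhere. Differences are therefore relative to the bulk of the genes. Scaling by total counts alone would lower the median gene at 16 dpc by 0.68 on the log2 scale against NP, and by 0.71 and 0.57 against 8 dpc under the null and the p21 virus. The following 3 libraries were closest, in their log2 CPM over all tested genes, to a library of another stage, namely NP AAV8-null replicate 1, AAV8-null 8 dpc replicate 3 and AAV8-p21 8 dpc replicate 3. In bulk liver RNA, fewer cells of a type and less RNA per cell cannot be told apart.

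For the 3 members with the lowest adjusted p-values between stages, the bases before a RefSeq start are printed. They were therefore chosen after the values were seen. Each window is the 250 bases before the RefSeq start on GRCm38.p6, read 5′ to 3′ on the gene's strand. Capitals mark matches to 1 of 7 motifs searched on both strands, which were FOX (TGTTTAC), HNF4 (CAAAGTC), C/EBP (TTGCNNAA), D-box (TTANGTAA), E-box (CACGTG), LRH-1 (CAAGGTCA) and the TATA box (TATAAA).
Nr1i3: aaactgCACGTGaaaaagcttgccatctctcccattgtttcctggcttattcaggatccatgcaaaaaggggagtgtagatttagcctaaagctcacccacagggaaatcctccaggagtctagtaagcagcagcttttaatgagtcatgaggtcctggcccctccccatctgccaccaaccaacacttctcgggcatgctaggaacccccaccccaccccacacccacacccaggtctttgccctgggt
Foxa3: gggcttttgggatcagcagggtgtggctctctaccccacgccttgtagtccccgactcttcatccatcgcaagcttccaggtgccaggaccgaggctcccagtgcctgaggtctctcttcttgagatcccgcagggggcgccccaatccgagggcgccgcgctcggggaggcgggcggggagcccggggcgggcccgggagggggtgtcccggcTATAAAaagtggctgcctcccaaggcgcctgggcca
Foxa1: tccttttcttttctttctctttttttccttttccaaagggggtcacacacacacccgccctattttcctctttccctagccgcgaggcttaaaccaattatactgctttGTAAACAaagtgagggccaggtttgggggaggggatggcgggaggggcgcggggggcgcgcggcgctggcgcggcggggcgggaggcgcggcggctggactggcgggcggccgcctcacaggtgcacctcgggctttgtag

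The Nr1i3 window (chr1:171213720-171213969, plus strand) held an E-box at position -244 from the start, the Foxa3 window (chr7:19023540-19023789, minus strand) held a TATA box at -36, and the Foxa1 window (chr12:57546112-57546361, minus strand) held a FOX motif on the opposite strand at -141. Of the 32851 promoter windows of this length, 6.02% held the E-box, 12.4% the TATA box and 3.17% the FOX motif. In the remaining members the TATA letters were found before Cebpa at -30, on the gene's strand. They were found on the opposite strand in 1 of 3 windows of Foxa2 (-208) and in 1 of 2 windows of Nr5a2 (-181). The other window of Nr5a2 held a C/EBP motif on the opposite strand at -243. The Foxa1 window lies inside the gene as annotated in GENCODE M21 (chr12:57540628-57546916), and not in front of it. A match is a description of the letters and not a bound site.

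The members were expressed at very different levels. To compare genes, counts were divided by the exon length in GENCODE M21 and scaled to the same total in each library (TPM). In NP AAV8-null livers Hnf4a was the most abundant at 422 TPM ± 103 (SD, n = 3), above Nr1i3 at 245 ± 69.7 and Cebpa at 241 ± 42.0, which overlapped each other. Cebpb (99.0 ± 21.7), Nr1i2 (87.2 ± 21.1) and Foxa3 (54.4 ± 14.4) followed, each overlapping the next. Nr5a2 (25.2 ± 6.85) and Foxa2 (19.8 ± 3.36) overlapped as well, and Foxa1 was lowest at 7.72 ± 1.97.

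**Figure D1:**
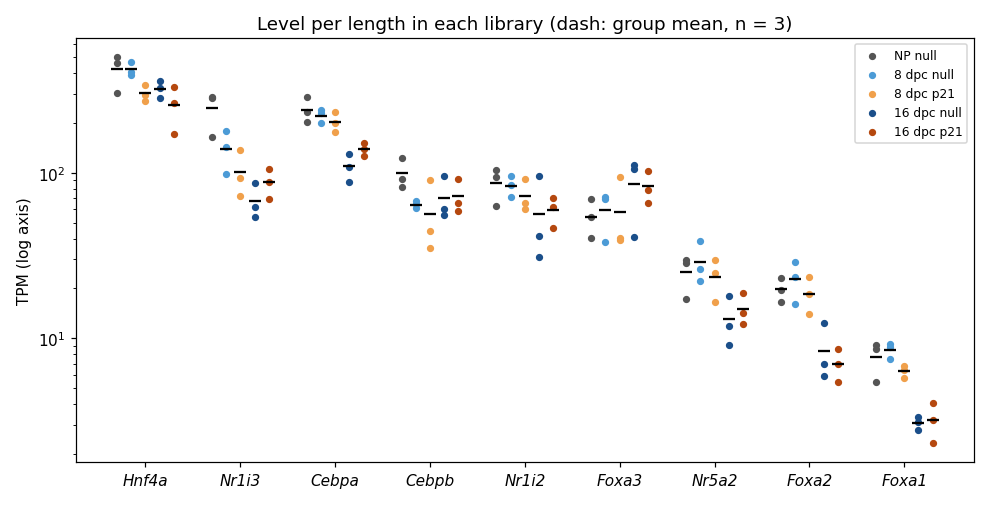
Level per length of the 9 members in every library, in TPM on a log axis, with members ordered by their mean in NP AAV8-null livers. Points are libraries and dashes are means of 3. Hnf4a is the highest and Foxa1 the lowest in all 5 groups, while Foxa3 has rank 6 in NP livers and, by exon length, rank 3 in AAV8-null livers at 16 dpc (rank 4 by the longest transcript).

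Hnf4a kept the top rank and Foxa1, Foxa2 and Nr5a2 the last 3 ranks in all 5 groups. The middle of the order differed. Nr1i3 had rank 2 in NP livers, rank 3 in both 8 dpc groups, rank 5 in AAV8-null livers at 16 dpc (67.6 TPM ± 16.9) and rank 3 in AAV8-p21 livers at 16 dpc (87.7 ± 17.6). In AAV8-null livers at 16 dpc Cebpa, Foxa3, Cebpb, Nr1i3 and Nr1i2 each overlapped the next in order, so that neighbours there do not differ beyond the spread, whereas Cebpa (88.5 to 130.2 TPM) and Nr1i3 (54.3 to 86.6 TPM) did not overlap. With the length of the longest transcript in place of all exons, Nr1i3 had rank 3, Foxa3 rank 4 and Cebpb rank 5 in this group. That length is 2980 bases for Nr1i3 against 4414 for all exons, so that its gap to Cebpa also depends on the length used. TPM depends on the share of albumin in each library and was compared only within groups.

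With edgeR's quasi-likelihood test and Benjamini-Hochberg adjustment over all genes tested, 0 of the 9 members passed an adjusted p of 0.05 in any of the 7 comparisons made. Between 8 dpc and NP under AAV8-null, 0% of all genes passed as well, with 1 member at an unadjusted p under 0.05 (6.60% of all genes). Between 16 dpc and NP, 6.52% of all genes passed and 3 members had an unadjusted p under 0.05 (21.2% of all genes). Between 16 dpc and 8 dpc, 6.87% passed under AAV8-null and 3.32% under AAV8-p21, with 3 members each at an unadjusted p under 0.05 (22.7% and 16.4% of all genes). DESeq2 on all 15 libraries called 2 members between 16 dpc and NP (Foxa3 and Nr1i3, against 9.03% of all genes) and 1 between 16 dpc and 8 dpc under AAV8-null (Foxa3, against 10.3%), and 0 under AAV8-p21 (5.77%) and between 8 dpc and NP (0.457%). In the order 8 dpc against NP, 16 dpc against NP and the 8 to 16 dpc step under each virus, limma voom with sample weights called 1, 3, 2 and 3 members, against 15.2%, 13.2%, 14% and 14.9% of all genes. Scaled by total counts alone, 5, 5 and 3 members passed in the 3 comparisons of 16 dpc, all on the lower side (Foxa1, Foxa2 and Cebpa in each, with Nr1i3 and Nr5a2 in both under AAV8-null), against 50.5%, 53.5% and 35.5% of all genes. Without the 3 libraries closest to another stage, edgeR called 1 (Nr1i3), 2 (Foxa1 and Foxa3) and 2 (Foxa3 and Cebpb) in these comparisons, against 8.65%, 14.3% and 6.7%. Nr1i3, Foxa3 and Foxa1 had the lowest adjusted p-values between stages.

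**Figure D2:**
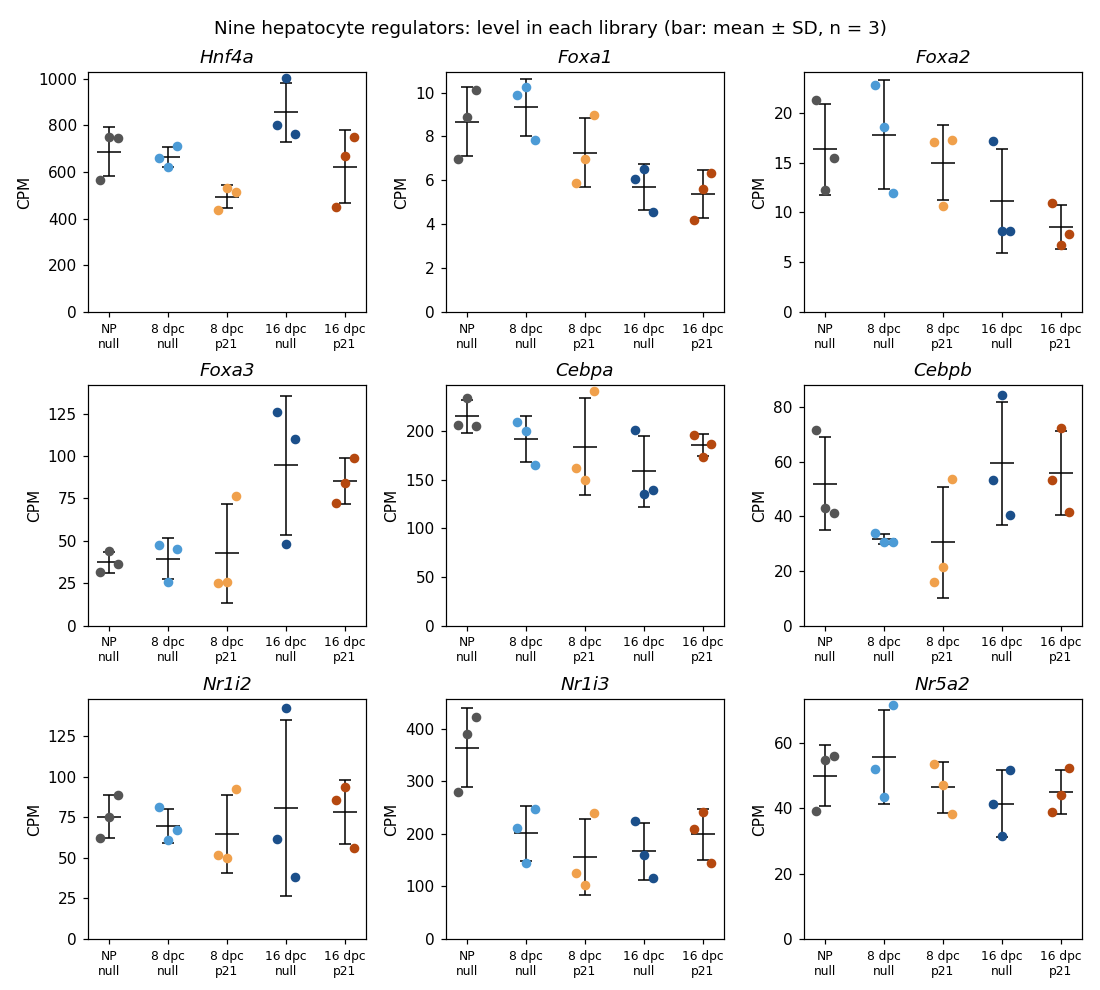
Level of each of the 9 members in every library, in CPM, by group (NP, 8 dpc and 16 dpc, with the null or the p21 virus). Points are libraries, and bars are the mean and SD of 3. The NP libraries of Nr1i3 lie above all libraries of the other groups, and 2 of 3 AAV8-null libraries of Foxa3 at 16 dpc lie above 100 CPM.

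Among the xenobiotic receptors, Nr1i3 differed most between stages. It encodes CAR, the constitutive androstane receptor, and is listed as ENSMUSG00000005677 (chr1:171213970-171220701, plus strand, 6 exon blocks). Its level was 279, 390.3 and 422 CPM in the 3 NP AAV8-null livers, 212, 144 and 247 at 8 dpc, and 224, 159 and 117 at 16 dpc. The AAV8-p21 values were 125, 104 and 239 CPM (8 dpc) and 210.2, 242 and 145 CPM (16 dpc). Every NP library lay above every pregnant library of either virus. The log2 fold change against NP was -0.86 ± 0.34 (SE) at 8 dpc (adjusted p = 0.581, and 0.00845 by limma voom at -1.10) and -1.13 ± 0.34 at 16 dpc (adjusted p = 0.0648), the second with a 95% interval of -1.85 to -0.40. Between 8 dpc and 16 dpc the difference was -0.27 ± 0.34 under AAV8-null and 0.35 ± 0.34 under AAV8-p21. With 1 library left out these ran from -0.55 to -0.072 and from 0.13 to 0.81, and with total counts alone they were -1.001 (adjusted p = 0.0167) and -0.20. The latter was 0.86 by limma voom (adjusted p = 0.0311). Without AAV8-null 16 dpc replicate 1 the difference from NP at 16 dpc was -1.40 (adjusted p = 0.047), and over 17 alternatives the adjusted p ran from 0.000974 to 0.203.

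The exons of Nr1i3 share 74.9% of their bases with Tomm40l on the opposite strand, and 55.8% of its 86-base windows also occur in Tomm40l transcripts. The libraries were stranded, but the strand setting of the counting is not given in the sources used here, so reads of the pair may not be separable. Tomm40l was at 1.58 to 8.55 CPM in the 15 libraries, against 104 to 422 CPM for Nr1i3.

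Nr1i2, which encodes the pregnane X receptor PXR (ENSMUSG00000022809, chr16:38248323-38294824, minus strand, 9 exon blocks), was decided by 1 library. It was at 62.3, 75.2 and 88.6 CPM in NP livers, 81.5, 61.0 and 67.3 at 8 dpc, and 61.9, 142 and 38.4 at 16 dpc under AAV8-null. The highest and the lowest of all 15 values were in this last group. The log2 fold change between 16 dpc and NP was 0.10 ± 0.39 (adjusted p = 0.918), -0.63 with total counts alone and -0.59 without AAV8-null 16 dpc replicate 2. The AAV8-p21 values were 51.6, 50.1 and 92.4 CPM (8 dpc) and 85.9, 93.5 and 55.9 CPM (16 dpc), a difference of 0.28 ± 0.39 (adjusted p = 0.789) that was -0.28 with total counts alone.

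None of the 3 forkhead genes passed the test in late pregnancy with edgeR and TMM scaling, and the differences between them were not tested. Foxa3 (ENSMUSG00000040891, chr7:19013284-19023538, minus strand, 2 exon blocks), the FOXA gene most abundant in adult liver here, was at 31.7, 43.9 and 36.6 CPM in NP livers, 47.4, 25.7 and 45.4 at 8 dpc and 126, 48.2 and 109.7 at 16 dpc under AAV8-null. The AAV8-p21 values were 25.3, 26.0 and 76.3 CPM (8 dpc) and 72.1, 84.1 and 99.0 CPM (16 dpc). The AAV8-null libraries at 16 dpc lay above all NP and all AAV8-null 8 dpc libraries, although replicate 2 did so by a small margin, and under AAV8-p21 the stages overlapped through 1 library at 8 dpc. The log2 fold change was 1.34 ± 0.42 between 16 dpc and NP (adjusted p = 0.0784, 95% interval 0.43 to 2.24), 1.26 ± 0.42 between 16 dpc and 8 dpc under AAV8-null (adjusted p = 0.0873) and 1.003 ± 0.42 under AAV8-p21 (adjusted p = 0.242). Without AAV8-null 16 dpc replicate 2 the first was 1.65 (adjusted p = 0.0404), and without AAV8-p21 8 dpc replicate 3 the last was 1.74 (adjusted p = 0.0242). With 1 library left out the 3 values ran from 1.08 to 1.65, from 0.997 to 1.57 and from 0.74 to 1.74. With total counts alone they were 0.68, 0.57 and 0.48. Over all alternatives their adjusted p ran from 0.00672 to 0.196, from 0.0185 to 0.305 and from 0.00422 to 0.574.

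Foxa1 (ENSMUSG00000035451, chr12:57540628-57546916, minus strand, 3 exon blocks) was at 7.00, 8.89 and 10.1 CPM in NP livers, 9.89, 10.2 and 7.85 at 8 dpc and 6.06, 6.50 and 4.54 at 16 dpc under AAV8-null, from 51 to 172 counts a library in these groups. All 3 AAV8-null libraries at 16 dpc lay below all NP and all 8 dpc libraries of this virus. The log2 fold change was -0.60 ± 0.24 against NP (adjusted p = 0.159) and -0.71 ± 0.24 against 8 dpc (adjusted p = 0.0862). The AAV8-p21 values were 5.87, 6.96 and 8.97 CPM (8 dpc) and 4.17, 5.60 and 6.34 CPM (16 dpc), a difference of -0.43 ± 0.24 (adjusted p = 0.396). With 1 library left out these 3 values ran from -0.74 to -0.46, from -0.82 to -0.57 and from -0.57 to -0.24, and with total counts alone they were -1.30, -1.43 and -0.98, all called.

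Foxa2 (ENSMUSG00000037025, chr2:148042877-148046969, minus strand, 4 exon blocks), a regulator of bile acid and fasting genes, was at 21.3, 12.2 and 15.5 CPM in NP livers, 22.8, 18.5 and 11.96 at 8 dpc and 17.1, 8.16 and 8.10 at 16 dpc under AAV8-null. These groups overlapped. The AAV8-p21 values were 17.0, 10.7 and 17.3 CPM (8 dpc) and 10.99, 6.76 and 7.79 CPM (16 dpc). The difference between 16 dpc and 8 dpc was -0.67 ± 0.34 under AAV8-null (adjusted p = 0.257) and -0.82 ± 0.34 under AAV8-p21 (adjusted p = 0.240). Leaving out 1 library, they ran from -1.13 to -0.46 and from -1.04 to -0.68, and with total counts alone both were -1.39 and were called.

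**Figure D3:**
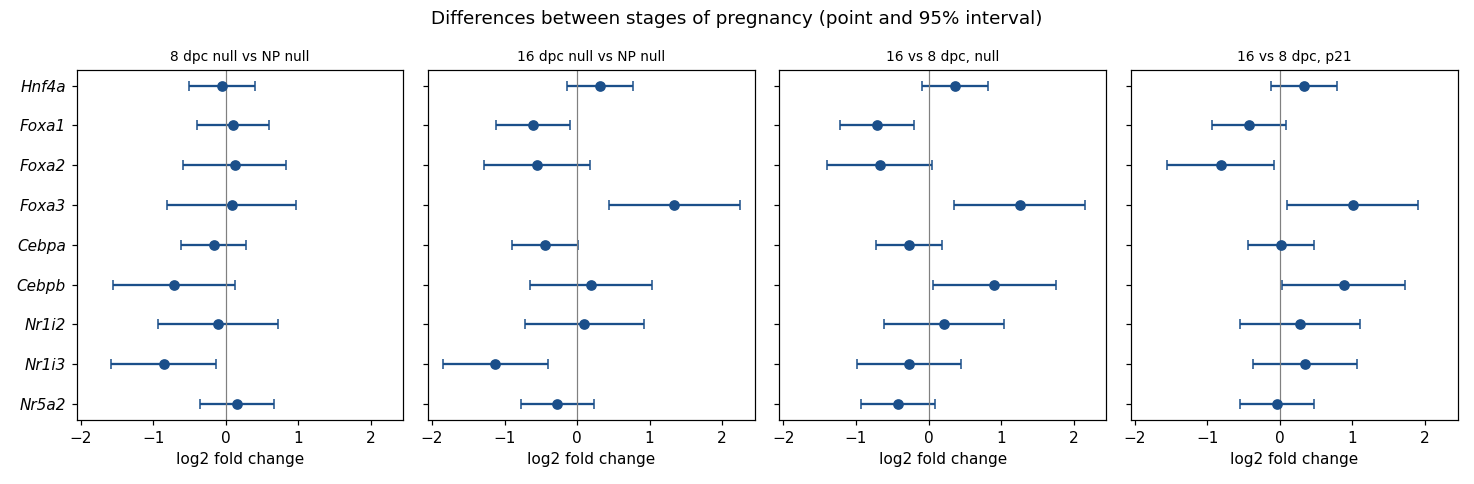
Differences between stages for the 9 members, as log2 fold changes with 95% intervals from edgeR, in 4 comparisons. Points right of 0 are higher in the later stage. Foxa3 lies at 1.34, 1.26 and 1.003 in the 3 comparisons of 16 dpc while Foxa1 and Foxa2 lie left of 0, and Nr1i3 lies left of 0 in both comparisons with NP.

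The 8 to 16 dpc step shares no library between the 2 viruses. Foxa3, Cebpb, Hnf4a (0.37 and 0.33) and Nr1i2 (0.21 and 0.28) were on the higher side in both, and Foxa1, Foxa2 and Nr5a2 (-0.43 and -0.041) on the lower side in both. Cebpa (-0.27 and 0.012) and Nr1i3 (-0.27 and 0.35) differed in sign. These are estimates of which 0 passed with edgeR and TMM scaling, and several signs depend on the scaling or on 1 library. With total counts alone Hnf4a stood at -0.35 and -0.23 and Nr1i2 at -0.55 and -0.28, and under AAV8-p21 Cebpa stood at -0.54 (adjusted p = 0.0499) and Nr1i3 at -0.20, so that only Foxa3 and Cebpb stayed on the higher side. Under AAV8-null Nr1i2 was at -0.20 by limma voom and at -0.48 without 16 dpc replicate 2. Under AAV8-p21 Cebpa ran from -0.12 to 0.27 and Nr5a2 from -0.16 to 0.077 with 1 library left out. Cebpb encodes C/EBPβ (ENSMUSG00000056501, chr2:167688915-167690418, plus strand, 1 exon). It was at 71.5, 42.9 and 41.2 CPM in NP livers, 33.8, 30.5 and 30.6 at 8 dpc and 53.4, 84.1 and 40.5 at 16 dpc under AAV8-null, and at 16.1, 21.6 and 53.7 at 8 dpc and 53.4, 72.4 and 41.7 at 16 dpc under AAV8-p21. All AAV8-null libraries at 8 dpc lay below all NP and all 16 dpc AAV8-null libraries. The difference from 8 dpc to 16 dpc was 0.91 ± 0.40 (adjusted p = 0.189) under AAV8-null and 0.88 ± 0.40 (adjusted p = 0.284) under AAV8-p21, and 1.58 (adjusted p = 0.026) without AAV8-p21 8 dpc replicate 3. With 1 library left out these values ran from 0.57 to 1.12 and from 0.57 to 1.58. With total counts alone they were 0.17 and 0.34, and over all alternatives their adjusted p ran from 0.0391 to 0.685 and from 0.00132 to 0.630. From NP to 8 dpc it was -0.71 ± 0.40 (adjusted p = 0.885).

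Cebpb shares 20.7% of its exon bases with Tmem189 on the opposite strand, and 16.1% of its 86-base windows. Tmem189 rose between 8 dpc and 16 dpc, by 2.43 ± 0.54 on the log2 scale under AAV8-null (adjusted p = 0.017) and 2.74 ± 0.55 under AAV8-p21 (adjusted p = 0.013), to 71.2 CPM ± 40.9 and 72.1 CPM ± 57.4 (SD, n = 3). Whether its reads enter the Cebpb counts was not tested.

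Cebpa, Nr5a2 and Hnf4a varied least, with highest-to-lowest ratios of 1.78, 2.28 and 2.28 over the 15 libraries. Cebpa (ENSMUSG00000034957, chr7:35119293-35121928, plus strand, 1 exon) stood at 215 CPM ± 16.9 (SD, n = 3) in NP livers, 192 ± 23.7 at 8 dpc and 159 ± 36.7 at 16 dpc under AAV8-null, and 184 ± 49.8 and 186 ± 11.4 under AAV8-p21. Its largest difference was -0.44 ± 0.21 between 16 dpc and NP (adjusted p = 0.2496), where the libraries did not overlap. It ran from -0.65 to -0.34 with 1 library left out and was -1.13 with total counts alone (adjusted p = 0.00123). Nr5a2 (ENSMUSG00000026398, chr1:136842571-136960448, minus strand, 10 exon blocks) stood at 50.02 CPM ± 9.33, 55.7 ± 14.4 and 41.5 ± 10.2 in the same AAV8-null groups and at 46.4 ± 7.68 and 45.1 ± 6.78 under AAV8-p21. Its largest difference was -0.43 ± 0.24 between 16 dpc and 8 dpc under AAV8-null (adjusted p = 0.311). This ran from -0.62 to -0.20 with 1 library left out and was -1.11 with total counts alone (adjusted p = 0.00653).

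Hnf4a (ENSMUSG00000017950, chr2:163506808-163572910, plus strand, 13 exon blocks) was at 566, 750.2 and 746 CPM in NP livers, 658, 622 and 709.7 at 8 dpc and 800.3, 1001 and 763 at 16 dpc under AAV8-null. The 16 dpc libraries lay above all others of this virus. The log2 fold change was 0.31 ± 0.21 against NP (adjusted p = 0.428) and 0.37 ± 0.21 against 8 dpc (adjusted p = 0.333). Both turned to -0.38 and -0.35 when libraries were scaled by total counts alone, so that the direction depends on the scaling.

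Between 16 dpc and NP, 5 of 9 members had groups that did not overlap (Hnf4a, Foxa1, Foxa3, Cebpa and Nr1i3), against 24.6% of all genes. Between 16 dpc and 8 dpc under AAV8-null there were 4 (Hnf4a, Foxa1, Foxa3 and Cebpb) against 25.4% of all genes, and under AAV8-p21 there were 0 against 22.9%. Between 8 dpc and NP there were 2 (Cebpb and Nr1i3) against 10.2%. An exact permutation test of 3 libraries against 3 cannot go below p = 0.1, which it gave in each of these cases. The median log2 fold change of the 9 members was -0.27 between 16 dpc and NP and -0.27 between 16 dpc and 8 dpc under AAV8-null, and 0.28 under AAV8-p21, against medians of -0.03, 0.00 and -0.02 over all genes.

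Forced p21 expression was compared with the null virus at each stage, the contrast for which the virus was made. At 8 dpc 0 of 9 members passed the test with edgeR, against 0.0246% of all genes, and 0 had an unadjusted p under 0.05 (5.18% of all genes). At 16 dpc 0 passed against 0.0739% of all genes, and 1 had an unadjusted p under 0.05 (9.77% of all genes). DESeq2 called 0 members at 8 and 16 dpc, against 0.177% and 0.965% of all genes, as did limma voom, against 0.863% and 0.961%.

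Hnf4a was the member with the smallest p at both stages. At 8 dpc its level was 439, 530.3 and 516 CPM under AAV8-p21 against 658, 622 and 709.7 under AAV8-null, and at 16 dpc 448, 668 and 749.9 against 800.3, 1001 and 763. The viruses did not overlap at either stage, where 10% and 13.7% of all genes did not. The log2 fold change was -0.42 ± 0.21 at 8 dpc (adjusted p = 1) with a 95% interval of -0.88 to 0.03, and -0.46 ± 0.21 at 16 dpc (adjusted p = 0.510) with an interval of -0.91 to -0.0036. They ran from -0.48 to -0.34 and from -0.62 to -0.27 when 1 library was left out. These comparisons share no library.

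**Figure D4:**
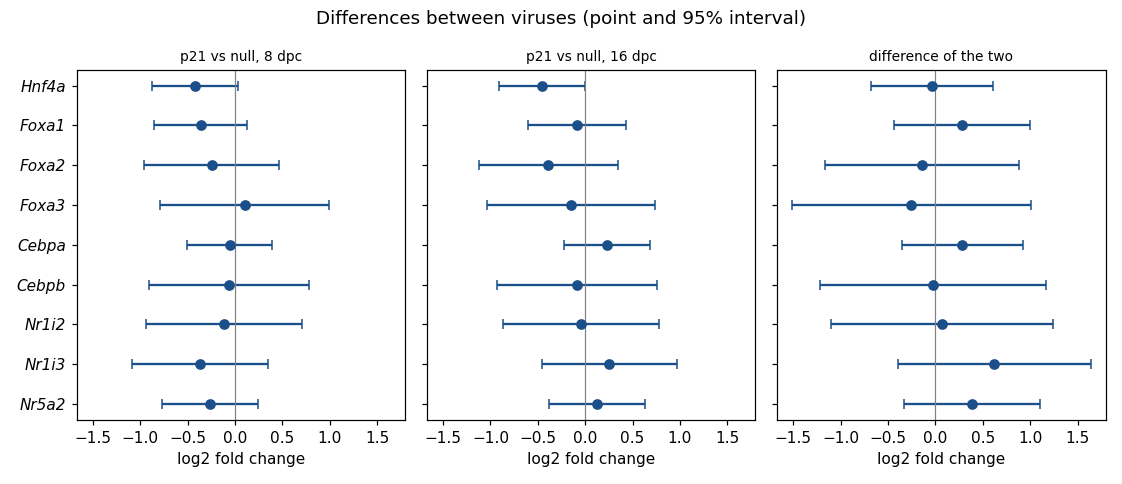
Differences between the p21 and the null virus at 8 dpc and at 16 dpc for the 9 members, and the difference of these differences, as log2 fold changes with 95% intervals from edgeR. Hnf4a lies at -0.42 and -0.46, and the widest intervals belong to Foxa3, Cebpb and Nr1i2.

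The other 8 members differed between viruses by -0.37 to 0.10 at 8 dpc and by -0.39 to 0.26 at 16 dpc. Their intervals left room for sizeable effects, for example -0.79 to 0.99 for Foxa3 at 8 dpc and -0.87 to 0.78 for Nr1i2 at 16 dpc. The interaction term, which asks whether the effect of the virus differed between stages, called 0 members and 0% of all genes with edgeR, and 0 members had an unadjusted p under 0.05 (3.09% of all genes). DESeq2 and limma voom called 0 members and 0% of all genes as well. The largest interaction was that of Nr1i3, at 0.62 ± 0.47 with a 95% interval of -0.39 to 1.64 (unadjusted p = 0.210 by edgeR), and it ran from 0.40 to 1.07 with 1 library left out.

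The genes controlled by these regulators were then examined in lists of textbook targets. The lists overlap and most of their genes have other regulators too. They were written with earlier results of these data known, so that their counts beside all genes are a description and not a test. Target genes passed the test in the 3 comparisons of 16 dpc with NP or 8 dpc, in both directions, where 20, 11 and 8 of the 74 tested genes passed with edgeR, against 6.52%, 6.87% and 3.32% of all genes. With each library left out in turn, all kept their sign, and 7, 6 and 5 of them passed in every fit. Alb, Cyp2c37, Itih4 and Lipc were among these in all 3 comparisons, Igfbp1 in both under AAV8-null, Apoa1 in both of 16 dpc with 8 dpc, and Cyp2b13 and Gls2 against NP. Each of the remaining calls was lost without at least 1 library. Between 8 dpc and NP 0 passed with 16 at an unadjusted p under 0.05 (6.60% of all genes), and between viruses 0 passed at either stage with 4 each (5.18% and 9.77% of all genes). Between 16 dpc and NP the median log2 fold change was -0.59 for the CAR list, -0.51 for PXR, 0.51 for HNF4A, 0.65 for FOXA, 0.52 for C/EBP and -0.29 for LRH-1, against -0.03 over all genes. With total counts alone, an alternative chosen after seeing the data, these medians were -1.28, -1.20, -0.18, -0.050, -0.15 and -0.98, against -0.70 over all genes.

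**Figure D5:**
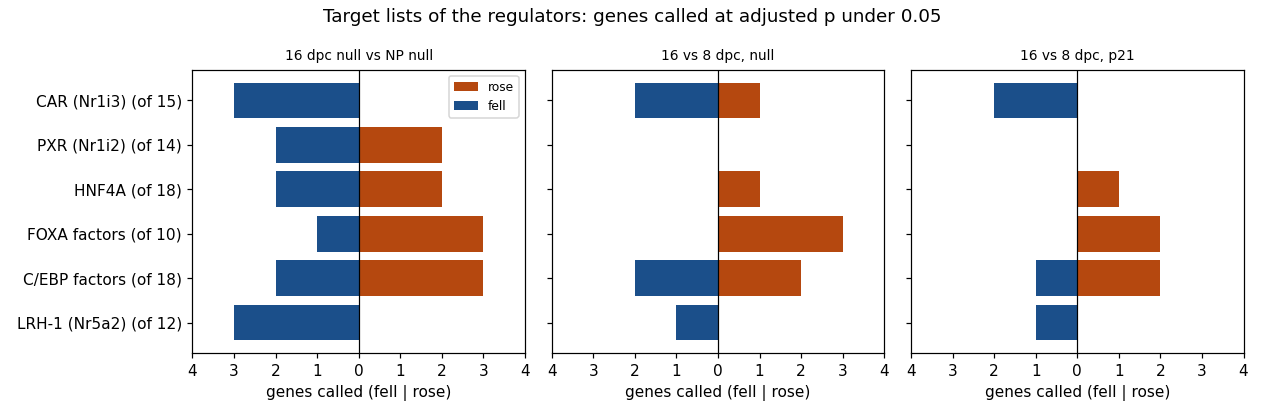
Number of target genes that rose (right of 0) or fell (left of 0) at adjusted p under 0.05 by edgeR, for the target lists of 6 regulators or regulator families, in 3 comparisons of 16 dpc. The number of genes tested stands beside each name. CAR targets and LRH-1 targets have 3 genes each that fell against NP and 0 that rose.

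Of 15 CAR targets, 3 fell and 0 rose between NP and 16 dpc. Cyp2b13 fell from 252 CPM ± 88.8 to 22.2 ± 16.5 (log2 fold change -3.51 ± 0.62, adjusted p = 0.0038), Cyp2c37 from 984 ± 83.4 to 147 ± 53.7 (-2.74 ± 0.35, adjusted p = 0.000407) and Cyp2b9 from 497 ± 74.2 to 251 ± 76.8 (-0.98 ± 0.26, adjusted p = 0.0342). These are cytochrome P450 genes of the families that metabolise drugs and steroids, and members of a family with close copies, so that the counting of unique reads may split them. Cyp2b13 and Cyp2c37 also fell from 8 dpc to 16 dpc, with log2 fold changes of -2.55 and -2.12 under AAV8-null and -2.67 and -2.30 under AAV8-p21. Gadd45b, a stress gene of the same list, rose by 2.21 ± 0.63 under AAV8-null (adjusted p = 0.0487). Cyp2b10, the usual reporter of CAR activity, was at 11.4 CPM ± 6.92 in NP livers, 28.5 ± 18.6 at 8 dpc and 7.12 ± 7.32 at 16 dpc under AAV8-null and did not pass the test.

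Of 14 PXR targets, 2 rose and 2 fell between NP and 16 dpc, and 0 passed from 8 dpc to 16 dpc under either virus. Cyp3a11, its main reporter gene, fell from 2996 CPM ± 621 to 1363 ± 102 (-1.14 ± 0.29, adjusted p = 0.0309) and Slco1a4, a bile acid and drug transporter, fell by 1.91 ± 0.50 on the log2 scale (adjusted p = 0.0331). Cyp3a44 and Cyp3a13 rose by 3.001 ± 0.63 and 0.87 ± 0.21 (adjusted p = 0.0113 and 0.0242), the second to 0.20 (adjusted p = 0.449) with total counts alone.

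Of 18 HNF4A targets, 2 rose and 2 fell between NP and 16 dpc. The clotting factor genes F12 (0.68 ± 0.16) and F9 (0.68 ± 0.16) rose with adjusted p = 0.0215 and 0.0217, and Cyp7a1, the rate-limiting enzyme of bile acid synthesis, fell by 3.09 ± 0.78 on the log2 scale (adjusted p = 0.0295). Ttr, a carrier of thyroid hormone and retinol, fell by 1.41 ± 0.33 (adjusted p = 0.0214). Cyp7a1 was at 15.2 CPM ± 14.7 in AAV8-null livers at 16 dpc, against 129.6 ± 72.5 in NP livers. With AAV8-p21 its level on that day was 161 CPM ± 106, a difference between viruses of 3.41 ± 0.79 on the log2 scale (adjusted p = 0.122). F12 also rose between 8 dpc and 16 dpc under both viruses (0.79 and 0.85). Scaled by total counts alone, F12 and F9 stood at 0.00 and 0.01 against NP and were not called, nor was F12 between 8 dpc and 16 dpc (0.071 and 0.29).

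Of 10 tested FOXA targets, 3 rose and 1 fell between NP and 16 dpc. Igfbp1, which binds insulin-like growth factors, rose from 118 CPM ± 28.4 to 1472 ± 477 (3.64 ± 0.45, adjusted p = 0.000365), and Alb and the lipoprotein gene Apoa1 rose by 2.01 ± 0.25 and 1.67 ± 0.34. Under AAV8-null all of these rose between 8 dpc and 16 dpc too, and under AAV8-p21 Apoa1 and Alb did (2.23 ± 0.35 and 1.33 ± 0.24). Of 18 C/EBP targets, 3 rose and 2 fell between NP and 16 dpc. Itih4, an acute phase plasma protein, rose by 3.56 ± 0.29 (adjusted p = 6.64e-06), while Lipc, hepatic lipase, fell by 3.59 ± 0.44 (adjusted p = 0.000351) and Ass1, a urea cycle enzyme, fell by 1.07 ± 0.25. Itih4 rose and Lipc fell from 8 dpc to 16 dpc under both viruses.

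Of 12 LRH-1 targets, 3 fell and 0 rose between NP and 16 dpc. Besides Cyp7a1 these were Gls2, a liver glutaminase, which fell by 1.34 ± 0.27 (adjusted p = 0.00842), and the HDL receptor gene Scarb1, which fell by 0.78 ± 0.20 (adjusted p = 0.0298). Gls2 also fell from 8 dpc to 16 dpc under both viruses. Nr0b2, which encodes the corepressor SHP, was at 35.1 CPM ± 24.4 in NP livers and 13.3 ± 12.8 at 16 dpc under AAV8-null and did not pass the test.

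Other regulators around the 9 members were counted in the same way. Of 21 tested liver-enriched transcription factors, Onecut2 rose by 1.02 ± 0.26 (adjusted p = 0.0296) and Klf15, a regulator of fasting metabolism, fell by 1.04 ± 0.29 (adjusted p = 0.0479) between NP and 16 dpc, where 6.52% of all genes passed, and Gata6 rose by 1.05 ± 0.27 between 8 dpc and 16 dpc under AAV8-p21 (adjusted p = 0.0435). Onecut2 and Gata6 stood at 0.37 and 0.48 with total counts alone and were not called. Of 21 tested nuclear receptors and partners, Esrra, a regulator of mitochondrial genes, fell by 0.81 ± 0.19 between NP and 16 dpc (adjusted p = 0.0181), and Rxrg and the thyroid hormone receptor gene Thra fell (-1.28 ± 0.27 and -1.05 ± 0.27) between 8 dpc and 16 dpc under AAV8-p21 (adjusted p = 0.0193 and 0.0493), where 3.32% of all genes passed. Each of these calls was lost with at least 1 library left out, with the same sign. Of 17 coregulators, 0 passed with edgeR in any comparison, with at most 3 at an unadjusted p under 0.05. Of 12 acute phase and inflammation genes, Socs3 and Fgb rose and Hamp fell between NP and 16 dpc, with log2 fold changes of 2.76 ± 0.62, 1.47 ± 0.28 and -2.61 ± 0.71. Hamp fell by 2.84 ± 0.72 from 8 dpc to 16 dpc under AAV8-p21 (adjusted p = 0.0453), and both Hamp calls and that of Socs3 were lost with at least 1 library left out. Saa2 passed between 8 dpc and 16 dpc under AAV8-null (-4.42 ± 1.20, adjusted p = 0.0414) through 1 library, at 18.8, 596 and 7.59 CPM at 8 dpc, and stood at -0.44 (adjusted p = 0.770) without replicate 2.

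Clock genes, which cycle over the day, differed between libraries of 1 group. In NP livers Dbp, an output gene of the clock, was at 5.68, 86.3 and 58.0 CPM and Arntl at 17.2, 1.71 and 1.40, and in the first of these libraries all members but Cebpa, Cebpb and Foxa2 were at their lowest of the 3, while Cebpb and Foxa2 were at their highest. In AAV8-p21 livers at 8 dpc Dbp was at 0.64, 1.71 and 61.4 CPM, and the last of these libraries was also the highest in Nr1i3, Foxa1, Foxa2, Foxa3, Cebpa, Cebpb and Nr1i2, and the lowest in Nr5a2. Dbp was at 51.8 to 120 CPM in AAV8-p21 livers and at 1.33 to 11.4 in AAV8-null livers at 16 dpc. Of 15 clock genes, 0 passed with edgeR in any comparison, with up to 8 at an unadjusted p under 0.05 (16 dpc against 8 dpc under AAV8-p21, where 16.4% of all genes were). The labels give no time of collection, and the part of the clock in the members' values was not tested.

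The genes most like each member were found by Pearson's r of log2(CPM + 0.5) over the 15 libraries, a description over libraries that share groups and stages. For Nr1i3 they were Tob2 (r = 0.90), the clock output gene Hlf (0.89) and Cdc42ep4 (0.86), and for Cebpa they were Marchf2 (0.86), the clock gene Nr1d1 (0.85) and Spata2l (0.85). By Spearman's correlation none of the 3 genes of Nr1i3, and of those of Cebpa neither Nr1d1 nor Spata2l, was among the closest 3. For Hnf4a they were Cyp4a32 (0.97), Wbp1l (0.91) and Tgoln1 (0.90), for Cebpb Eif1 (0.92), Dym (0.90) and Polr1d (0.89), and for Nr5a2 Cdc37l1 (0.91) and Ice2 (0.88). Foxa1 was most like Emc3 (0.89), Selenoh (0.87) and Cbx7 (0.86), Foxa2 most like Mup6 (0.89), Gm12258 (0.89) and Nat2 (0.89), Foxa3 most like Tent5a (0.89), 2010003K11Rik (0.88) and Aprt (0.87), and Nr1i2 most like Fgfrl1 (0.89), Ypel5 (0.84) and Fbf1 (0.82). Among the members themselves, the closest pair was Cebpa and Nr1i3 (r = 0.67) and the most opposed pair was Cebpb and Nr5a2 (r = -0.63). By Spearman's correlation the closest pair was instead Cebpb and Nr1i2 (0.70), with Cebpa and Nr1i3 at 0.64. Foxa1 and Foxa2 were alike (0.57), and both ran against Foxa3 (-0.49 and -0.44).

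Markers of other cell types were low beside the hepatocyte list. In that list Alb alone was at 65701 to 408470 CPM, so that these sums are not shares of cells. The summed CPM of 7 Kupffer cell and macrophage markers was 160 to 425, that of 7 endothelial markers 98.7 to 251 and that of 7 stellate cell markers 99.7 to 258, against 101384 to 491477 for 9 hepatocyte markers. The medians of the endothelial and stellate cell sums were lowest at 8 dpc under AAV8-null (135 and 111 CPM). Of the markers left out by the filter, Ly6g was at 0 counts in 11 libraries, Camp in 10 and Cftr in 7. The lowest, median and highest sums of the 6 proliferation markers were 12.9, 112 and 117 CPM in AAV8-null livers at 8 dpc. In all other groups they summed to 2.999 to 21.5 CPM. Between NP and 16 dpc the neutrophil markers S100a8 and S100a9 rose by 3.99 ± 0.64 and 3.77 ± 0.76 on the log2 scale and the erythroid markers Alas2 and Hbb-bs by 1.504 ± 0.33 and 1.05 ± 0.29, while Lrat, 1 of 7 stellate cell markers, fell by 1.41 ± 0.35. The other 6 did not pass, the median of the stellate list was 0.038, and the median of its summed level was 188 CPM in NP livers and 232 CPM at 16 dpc. Between 8 dpc and 16 dpc under AAV8-null the endothelial markers Pecam1 and Clec4g rose by 1.16 ± 0.29 and 0.80 ± 0.18, and the stellate cell marker Dcn by 1.04 ± 0.22, which were 2 of 7 and 1 of 7 of their lists. With total counts alone Hbb-bs (0.40), Pecam1 (0.43), Clec4g (0.099) and Dcn (0.34) were not called, and of all these markers only S100a8 and S100a9 passed with each library left out in turn. Their part in the members' differences was not tested.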

How the data were processed

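Liver mRNA of 15 mice was sequenced as single-end reads of 86 bases with a stranded kit. Adapter trimming by the authors used cutadapt 1.14, alignment to mm10 used HISAT2 2.1.0 and counting of unique alignments on protein-coding genes used HTSeq 0.12.4, and the deposited values are these raw counts. Reads shared with close copies are lost by this step. The 3 columns of AAV8-p21 livers at 16 dpc carry other numbers than the sample labels and were used as replicates without a number. Separate mice are assumed from the labels.

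Counts were tested with edgeR 4.0.16 (TMM, filterByExpr with minimum count 10, quasi-likelihood test in 1 model of 15 libraries with 10 residual degrees of freedom, Benjamini-Hochberg, threshold 0.05). The Wald test of DESeq2, named in the study's methods, and limma voom served as alternatives here (versions 1.42.0 and 3.58.1). Standard errors are the log2 fold change over the square root of the F statistic. Positions are from GENCODE M21, and 21588 of the 21702 genes were found there. The fits were also run on simulated counts. These held larger changes than those of the members and no shift in the share of albumin. Named genes were the 9 members, Cdkn1a, overlapping genes, the 3 genes most like each member and up to 4 genes a list and comparison by size of change among those that passed. List-defining genes and clock genes were added for their level. A gene that this rule names is not reported here. The members and lists were chosen with earlier results of these data known. Alternatives were other scalings, filters and tools, the replicate block, each library left out (for the list genes chosen after seeing the data), and a fold threshold of 1 on the log2 scale. Samples of microdissected tissue were not analysed here.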

Additional observations from a re-analysis of the deposited data

How the results depend on the processing

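The counts of members called changed in 17 cases and stayed in 109. Against 0 with edgeR, total counts without TMM called 5, 5 and 3 members for 16 dpc against NP and for the 8 to 16 dpc step under AAV8-null and AAV8-p21 (Foxa1, Foxa2 and Cebpa in all 3, Nr1i3 and Nr5a2 in the first 2). DESeq2 on all 15 libraries called 2 and 1 in the first 2 (Foxa3 in both, Nr1i3 in the first), and DESeq2 on the compared groups 2 and 2 (Foxa3 in both, Nr1i3 in the first and Cebpb in the second). limma voom called 1 for 8 dpc against NP (Nr1i3), and 3, 2 and 3 in the same 3 comparisons. Leaving out 1 library gave 0 to 1 members for 16 dpc against NP, and 0 to 2 for the 8 to 16 dpc step under AAV8-p21. Without the 3 libraries closest to another stage, an alternative chosen after seeing the data, 1, 2 and 2 members were called (Nr1i3, then Foxa1 and Foxa3, then Foxa3 and Cebpb). DESeq2's size factors, both other filters, edgeR on the compared groups alone and a fold threshold gave 0 in every comparison run.

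Any change of sign from the main test was counted as a reversal, also of values near 0. With total counts alone the log2 fold changes turned to Hnf4a -0.38, Cebpb -0.50 and Nr1i2 -0.63 for 16 dpc against NP, Hnf4a -0.35 and Nr1i2 -0.55 for 16 against 8 dpc under AAV8-null, Hnf4a -0.23, Cebpa -0.54, Nr1i2 -0.28 and Nr1i3 -0.20 for 16 against 8 dpc under AAV8-p21, Foxa1 0.051, Cebpb 0.048 and Nr1i2 0.11 for p21 against null at 16 dpc and Hnf4a 0.13, Foxa2 0.0050 and Cebpb 0.17 for the interaction. With limma voom they turned to Foxa3 -0.13 and Nr5a2 -0.12 for 8 dpc against NP, Nr1i2 -0.36 for 16 dpc against NP, Nr1i2 -0.20 for 16 against 8 dpc under AAV8-null, Foxa3 -0.37 for p21 against null at 8 dpc, Cebpb 0.24 and Nr1i2 0.48 for p21 against null at 16 dpc and Foxa2 0.14, Foxa3 0.15 and Cebpb 0.84 for the interaction. Without the 3 libraries they turned to Foxa3 -0.11 and Nr5a2 -0.19 for 8 dpc against NP, Nr1i2 -0.0057 for 16 dpc against NP, Foxa3 -0.52 and Nr5a2 0.074 for p21 against null at 8 dpc and Foxa2 0.19, Foxa3 0.36 and Cebpb 0.69 for the interaction. With 1 library left out, the values that changed sign ranged over Hnf4a -0.17 to 0.018, Foxa1 -0.027 to 0.23, Foxa2 -0.095 to 0.36, Foxa3 -0.068 to 0.32, Nr1i2 -0.23 to 0.025 and Nr5a2 -0.068 to 0.31 for 8 dpc against NP, Cebpb -0.14 to 0.50 and Nr1i2 -0.59 to 0.44 for 16 dpc against NP, Nr1i2 -0.48 to 0.54 for 16 against 8 dpc under AAV8-null, Foxa3 -0.63 to 0.37, Cebpa -0.30 to 0.072, Cebpb -0.75 to 0.25 and Nr1i2 -0.46 to 0.039 for p21 against null at 8 dpc, Hnf4a -0.19 to 0.15, Foxa2 -0.37 to 0.31, Foxa3 -0.57 to 0.47, Cebpb -0.33 to 0.66 and Nr1i2 -0.27 to 0.76 for the interaction, Foxa1 -0.22 to 0.067, Foxa2 -0.61 to 0.064, Foxa3 -0.47 to 0.11, Cebpb -0.32 to 0.25, Nr1i2 -0.38 to 0.64 and Nr5a2 -0.043 to 0.31 for p21 against null at 16 dpc and Cebpa -0.12 to 0.27 and Nr5a2 -0.16 to 0.077 for 16 against 8 dpc under AAV8-p21. Apart from the different scaling and the fewer libraries, the cause was not tested. Of 1071 log2 fold changes under alternatives, 943 kept their sign and their side of the threshold.

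Whether the replicate numbers pair the mice cannot be decided with 3 libraries a group. Their numbers can be matched in 4 comparisons, namely 16 against 8 dpc, 16 dpc against NP and 8 dpc against NP under AAV8-null, and p21 against null at 8 dpc. Deviations of same-numbered libraries correlated from -0.30 to 0.31, -0.05 to 0.47, -0.58 to 0.35 and -0.13 to 0.13. The means were 0.075, 0.25, -0.014 and -0.0064, against -0.038, -0.13, -0.020 and -0.0010 for other pairs. With the replicate number as a block on these 12 libraries 0 members were called in all 4 comparisons, as on the same libraries without it, and Foxa3 turned to -0.027 for 8 dpc against NP. Levels per length changed by more than 1 SD in 9 of 45 cases when the longest transcript was used, and 11 of the 27 genes most like a member stayed among the closest 3 by Spearman's correlation. Depth is lowest for Foxa1, with 49 to 172 counts a library, and its effect on the calls was not tested.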
